A study of Rattus norvegicus with 9 samples.

Results

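The immunoglobulin chain genes listed here were 4 genes with 5 single-gene probe sets, out of 14217 genes and 31042 probe sets compared. Whether probe sets without a single gene name also read immunoglobulin chains was not examined. The members were a fixed list, the heavy chain genes Ighl2 and Ighvl1, the lambda light chain constant gene Iglc1 and the joining chain gene Jchain. They were picked because earlier results of the same arrays showed low values under the cafeteria diet. Their differences between the diets are therefore given as a description, with no p-value of their own. Islet RNA of Wistar rats was hybridised to Affymetrix rat genome arrays, each sample to its own array. The lean group (4 arrays) received standard chow, and the obese group (5 arrays) received a high-caloric cafeteria diet, an energy-dense choice of palatable foods, for 30 days. All rats were of the same strain and no other treatment is named. The islets were freed by collagenase digestion, a step that can leave fragments of neighbouring tissue among them. The sources used here do not give age, sex or the hour of killing, nor whether a sample holds islets of more than 1 animal. How much of the spread between arrays is biological or technical therefore cannot be told.

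An antibody is built of heavy and light chains, and each chain has a variable region that binds the antigen and a constant region. B lymphocytes assemble the variable region from V, D and J segments of their DNA, and an assembled gene is transcribed from the promoter of the V segment that was joined. Plasma cells, the end stage of that lineage, make these chains in very large amounts. The joining chain links IgM and IgA molecules into polymers, which the polymeric immunoglobulin receptor can then carry across epithelia. Islet endocrine cells do not make antibodies, so immunoglobulin RNA in islet preparations is usually taken to come from lymphoid cells among or around the islets. Whether fewer such cells or less RNA per cell underlies a low value in bulk RNA cannot be told apart.

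The tissue label fitted its markers. Ins2, which encodes insulin, had a mean log2 value of 14.19 in both groups and Gcg, which encodes glucagon, 13.65 in lean and 13.57 in cafeteria islets. Values are log2 signals after robust multi-array averaging (RMA), in which 1 unit is a doubling. The arrays correlated with each other at 0.979 to 0.994 over all probe sets compared. RNA quality, the mean 3-prime minus 5-prime difference of the actin and Gapdh control probe sets, was 1.56 ± 0.16 (SD, n = 4) in the lean group and 1.51 ± 0.24 (SD, n = 5) in the cafeteria group (two-sided exact permutation p = 0.746). Lean replicate 3 stood apart in lymphocyte genes, so the members' differences, separation and spread are given with and without it.

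A RefSeq gene table lists Ighl2 and Ighvl1 as V segments and Iglc1 and Jchain as protein-coding genes. V segments resemble each other in sequence, so a V segment probe set can read antibody transcripts of related segments, and which transcripts it read was not resolved here. Jchain is not assembled from segments and is transcribed from its own promoter. Its promoter is shown because a coactivator gene of the octamer motif, Pou2af1, was high in the same arrays as 1 of the 2 Jchain probe sets, 1383163_at, as described below. The octamer ATTTGCAT is the best known element of immunoglobulin promoters, where octamer factors and the coactivator bind. The 250 bases before the RefSeq start of Jchain (build GRCr8, chr14:19822726-19822975, plus strand) read as follows, with the 7 octamer-like bases ATTTGCA in capitals.
Jchain promoter: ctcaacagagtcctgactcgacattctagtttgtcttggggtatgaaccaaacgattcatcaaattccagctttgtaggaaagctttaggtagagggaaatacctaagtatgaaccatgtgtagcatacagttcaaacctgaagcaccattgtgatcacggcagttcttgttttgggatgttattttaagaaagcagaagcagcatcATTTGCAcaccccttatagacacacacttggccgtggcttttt
Both strands were searched. The complete 8-base octamer had 0 matches in this window, and 1.56% of 33469 windows of the same length held it. Its first 7 bases, ATTTGCA, which every complete octamer contains, matched 1 time on the plus strand, starting 43 bases before the gene start, and 3.54% of the windows held them. A match of letters is a description and shows no binding.

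Ighvl1, a heavy chain V segment, had the widest values among the members. Its log2 values in lean replicates 1 to 4 were 6.01, 5.66, 9.02 and 5.30, and in cafeteria replicates 1 to 5 they were 4.73, 4.25, 4.34, 4.33 and 4.32. Each cafeteria array lay below each lean array, with a gap of 0.56 between the nearest values, and lean replicate 3 lay far above all others. The means were 6.50 ± 1.71 (SD, n = 4) and 4.39 ± 0.19 (n = 5), and the difference of -2.10 (SE 0.62) corresponds to 4.30-fold higher values in lean islets. Without lean replicate 3 the difference was -1.26 (SE 0.16), or 2.40-fold, and every cafeteria array still lay below the other lean arrays. Among all probe sets compared, ordered from the lowest difference, Ighvl1 stood at position 4 with all arrays and at position 14 without lean replicate 3. The value of lean replicate 3 exceeded the mean of the other 8 arrays by 4.15, the largest such excess of all 31042 probe sets.

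Ighl2, the other heavy chain V segment, showed a smaller difference with less spread. Lean replicates 1 to 4 had log2 values of 5.11, 4.81, 5.77 and 5.16, and cafeteria replicates 1 to 5 had 4.46, 4.31, 4.27, 4.39 and 4.49. Here too the groups did not overlap, with a gap of 0.32, and lean replicate 3 was the highest array. The means were 5.21 ± 0.40 (SD, n = 4) and 4.38 ± 0.09 (n = 5), a difference of -0.83 (SE 0.16) or 1.78-fold higher in lean islets. Without lean replicate 3 it was -0.65 (SE 0.10), or 1.56-fold. Lean replicate 3 exceeded the other 8 arrays by 1.14, position 99 of all probe sets, so its excess was less extreme here than in Ighvl1.

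Iglc1, the constant region of a lambda light chain, did not share this pattern outside lean replicate 3. Most rat light chains are of the kappa type, for which no member was on the list. The log2 values of Iglc1 were 4.37, 4.39, 5.14 and 4.20 in lean replicates 1 to 4 and 4.39, 3.99, 4.24, 4.47 and 4.15 in cafeteria replicates 1 to 5. The groups overlapped, and only lean replicate 3 exceeded all cafeteria arrays. The difference of -0.27 (SE 0.18) became -0.07 (SE 0.12) without that array.

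Jchain, the joining chain, was measured by 2 probe sets that gave different pictures. Probe set 1383163_at had log2 values of 5.14, 3.89, 5.01 and 4.53 in lean replicates 1 to 4 and of 4.02, 4.08, 4.01, 4.01 and 3.89 in cafeteria replicates 1 to 5. Lean replicates 1, 3 and 4 lay above all cafeteria arrays, whereas lean replicate 2 lay among the lowest, so the groups overlapped. The difference was -0.64 (SE 0.21), or 1.56-fold higher in lean islets, and -0.52 (SE 0.22) without lean replicate 3. When lean replicate 1 was left out as well, a choice made after its values were seen, it was -0.21 (SE 0.15).

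Probe set 1384208_at of Jchain had log2 values of 4.13, 4.09, 4.53 and 4.26 in lean replicates 1 to 4 and of 4.15, 4.06, 4.04, 4.08 and 4.38 in cafeteria replicates 1 to 5. The groups overlapped, with lean replicate 3 highest and cafeteria replicate 5 next. Its difference was -0.11 (SE 0.11), and -0.02 (SE 0.10) without lean replicate 3. The 2 probe sets therefore shared a high value in lean replicate 3, but not the high value of lean replicate 1, which was 1.14 above the cafeteria mean in the first and -0.0098 from it in the second.

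**Figure D1:**
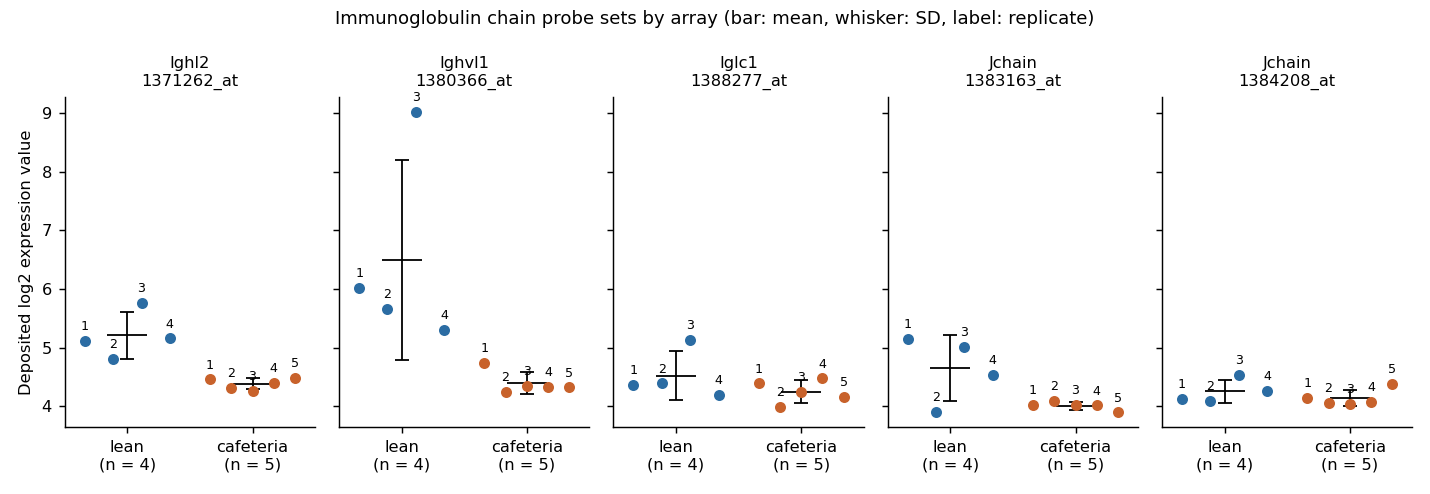
Deposited log2 expression values (y axis) of the 5 immunoglobulin chain probe sets in the lean (blue, n = 4) and cafeteria (orange, n = 5) groups; points are single arrays labelled by replicate, bars are means and whiskers SD. The lean points of Ighl2 and Ighvl1 lie above all cafeteria points, lean replicate 3 of Ighvl1 reaches 9.02, and the groups of Iglc1 and of both Jchain probe sets overlap.

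Across the members, all 5 probe sets had a lower mean under the cafeteria diet, with a median difference of -0.64, where the median over all probe sets compared was 0.0079. Without lean replicate 3 all 5 were again lower, with a median of -0.52 against 0.0029 over all probe sets. By limma 0 of 31042 probe sets (0%) passed an adjusted p of 0.05, with a smallest adjusted p of 0.844 and 1789 probe sets (5.76%) at an unadjusted p under 0.05. In 2 of the 5, Ighl2 and Ighvl1, every cafeteria array lay below every lean array, against 0.660% of all probe sets. Both were again separate when lean replicate 3 was left out, against 1.30%, and also with lean replicates 1 and 3 left out, against 3.94%. Nothing is read from these shares, since the members were chosen on this comparison.

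The spread between arrays is likewise only a description, since the members were chosen on this comparison, and nothing is read from the shares beside it. All 5 probe sets had a larger SD in lean than in cafeteria samples, which 48.2% of all probe sets had. Without lean replicate 3 this held for 3 of the 5, Ighl2, Ighvl1 and Jchain 1383163_at, against 47.1% of all probe sets. For Ighvl1 the lean SD was 1.71 and the cafeteria SD 0.19, and without lean replicate 3 the lean SD was 0.36. The median SD of all probe sets was 0.14 in either group. The cafeteria arrays of Jchain 1383163_at (SD 0.0687) and Ighl2 (SD 0.0947) varied less than that median. In 4 of the 5 probe sets the highest array was lean replicate 3, as it was for 9.71% of all probe sets, and in the remaining one, Jchain 1383163_at, it was lean replicate 1.

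Most member values were dim, and dim RMA values compress differences. Iglc1 and both Jchain probe sets lay below the array median (5.28 to 5.32) on all 9 arrays, Ighl2 on 8 and Ighvl1 on 6. RMA gives no detection call, so whether the low cafeteria values reflect any transcript was not determined.

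**Figure D2:**
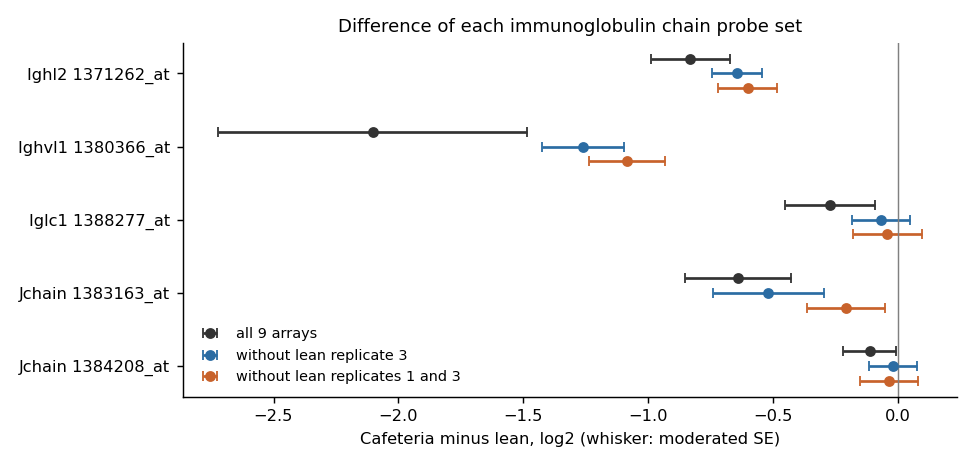
Difference between the diets (cafeteria minus lean, log2, x axis) of each immunoglobulin chain probe set, with the moderated standard error as whisker, for all 9 arrays, with lean replicate 3 left out and with lean replicates 1 and 3 left out. Ighvl1 moves from -2.10 to -1.26 and -1.08, Ighl2 from -0.83 to -0.65 and -0.60, and Iglc1 and Jchain 1384208_at lie close to 0 once lean replicate 3 is left out.

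Symbols that begin with the same letters were no immunoglobulin chains. Ighmbp2, a helicase named for binding to the switch region of the heavy chain locus, differed by -0.12 (SE 0.19) and Iglon5, a neuronal adhesion molecule, by -0.0728 (SE 0.09). Neither passed the test by limma.

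B cell markers had the same array on the high side as Ighvl1. Of 20 listed genes 15 were measured, and 14 of these had a lower mean under the cafeteria diet (median difference -0.24), where 49.2% of all genes did (median 0.0025). By limma 0 of 15 passed an adjusted p of 0.05, and 5 had an unadjusted p under 0.05, against 6.70% of all genes. The level of the list on an array is its measured genes' average deviation from their own 9-array means, in log2 units. It was 0.71 in lean replicate 3, -0.07 to 0.14 in the other lean arrays and -0.22 to -0.09 in the cafeteria arrays. Lean replicate 3 was the highest array in 11 of the 15 genes, and without it the median difference was -0.14, with 12 lower.

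Ms4a1, which encodes the B cell surface protein CD20, had log2 values of 4.05, 3.69, 6.31 and 3.68 in lean replicates 1 to 4 and of 3.56, 3.48, 3.26, 3.47 and 3.71 in cafeteria replicates 1 to 5. Only lean replicate 3 was clearly above the rest, and the groups overlapped. The difference of -0.94 (SE 0.46) was -0.31 without that array. Cd79b, a signalling chain of the B cell receptor, was 6.40 in lean replicate 3, 4.72 to 5.0 in the other lean arrays and 4.38 to 4.67 in cafeteria arrays (difference -0.67, SE 0.29; -0.28 without lean replicate 3). Ms4a1 and Cd79b were chosen after their values were seen.

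The 3 brightest B cell list genes are also expressed outside B cells and did not follow lean replicate 3. Cd24, a surface protein that duct and progenitor cells carry too, differed by -0.87 (SE 0.26) and was highest in lean replicate 1, at 8.64. Blnk, a B cell receptor adaptor, differed by -0.13 (SE 0.11), and Cxcr5, a chemokine receptor of follicular B cells, by 0.06 (SE 0.09).

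Plasma cell markers were measured in 10 of 15 listed genes, with 5 lower and 5 higher under the cafeteria diet and a median difference of 0.0289. By limma 0 passed an adjusted p of 0.05, and 2 had an unadjusted p under 0.05. Of all genes 49.2% were lower and 6.70% had such an unadjusted p. The list level was highest in lean replicate 3 (0.15) and lean replicate 1 (0.10), and lay between -0.09 and 0.03 in the other 7 arrays. Mzb1, a chaperone of antibody assembly in the endoplasmic reticulum, was 4.65 to 4.77 in lean and 4.43 to 4.81 in cafeteria arrays. Tnfrsf17, the plasma cell receptor BCMA, was 4.03 to 4.23 and 3.95 to 4.41. Both were dim on all arrays and were picked with their values known. Sdc1, another gene of this list picked in that way, was equally below the array median on all arrays. Its log2 values were 5.25, 4.49, 4.92 and 4.37 in lean replicates 1 to 4 and 4.38 to 4.90 in cafeteria arrays. Lean replicates 1 and 3 thus lay above all cafeteria arrays, while the groups overlapped (difference -0.18, SE 0.17). The 3 brightest, Xbp1 (-0.0022, SE 0.07), a regulator of the secretory machinery, Txndc5 (0.18, SE 0.10), a protein folding enzyme, and Creld2 (0.46, SE 0.17), a stress-induced endoplasmic reticulum protein, are also expressed by endocrine and acinar cells.

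Pou2af1 is also on the plasma cell list. It encodes a B lymphocyte coactivator that binds octamer factors on immunoglobulin promoters. Its log2 values were 4.72, 3.30, 5.39 and 3.34 in lean replicates 1 to 4 and 3.0, 3.05, 3.14, 3.02 and 3.02 in cafeteria replicates 1 to 5. The groups did not overlap (0.837% of all genes were lower without overlap), and lean replicates 1 and 3 were far above the other lean arrays, the same arrays in which Jchain 1383163_at was highest. The difference was -1.14 (SE 0.38), and -0.74 without lean replicate 3, and it did not pass the test by limma. The gene was chosen after its values were seen.

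**Figure D3:**
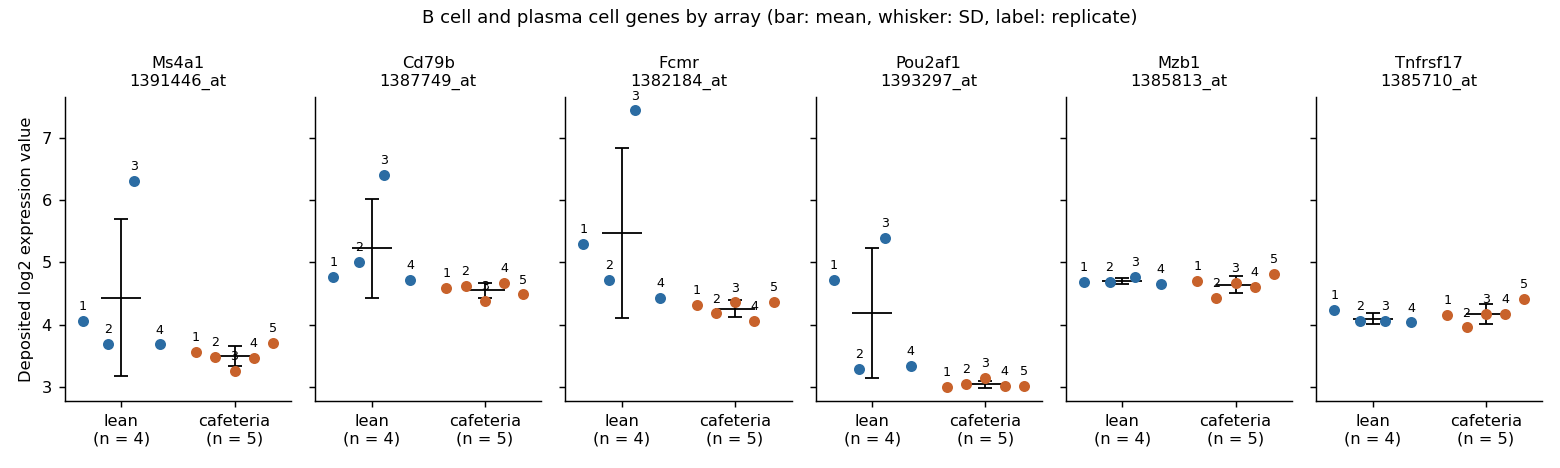
Deposited log2 expression values (y axis) of the B cell genes Ms4a1 and Cd79b, the IgM receptor gene Fcmr and the plasma cell list genes Pou2af1, Mzb1 and Tnfrsf17 in lean (blue, n = 4) and cafeteria (orange, n = 5) arrays, labelled by replicate, with means (bars) and SD (whiskers). Lean replicate 3 is highest in Ms4a1, Cd79b, Fcmr and Pou2af1, at 6.31, 6.40, 7.44 and 5.39, while the groups of Mzb1 and Tnfrsf17 overlap.

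Receptors and carriers of immunoglobulins were measured in 10 of 13 listed genes, with 7 lower under the cafeteria diet and a median difference of -0.14, which was -0.03 without lean replicate 1 and -0.25 without lean replicate 4. By limma 0 passed an adjusted p of 0.05, and 3 had an unadjusted p under 0.05, all lower. The shares of all genes were 49.2% lower and 6.70% under that unadjusted p in either direction. Fcmr, the IgM receptor of lymphocytes, had log2 values of 5.30, 4.71, 7.44 and 4.43 in lean replicates 1 to 4 and 4.32, 4.18, 4.35, 4.06 and 4.37 in cafeteria replicates 1 to 5. The groups did not overlap (0.837% of all genes were lower without overlap), and lean replicate 3 was the highest array. The difference of -1.21 (SE 0.49) was -0.56 without that array. Fcmr was chosen after its values were seen.

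Fcgrt, the neonatal Fc receptor that protects IgG from breakdown in many cell types, differed without following lean replicate 3. It was 7.08, 6.90, 7.02 and 6.81 in lean replicates 1 to 4 and 6.75, 6.53, 6.62, 6.68 and 6.32 in cafeteria replicates 1 to 5. The groups did not overlap, as in the 0.837% of all genes that were lower without overlap. The difference of -0.37 (SE 0.10) was -0.35 without lean replicate 3, with an adjusted p by limma of 0.844 in the fit of all arrays. Pigr, the polymeric immunoglobulin receptor of epithelia, differed by -0.19 (SE 0.18) and was highest in lean replicate 1, at 7.61. Lgals3, a lectin that also binds IgE, differed by -0.0885 (SE 0.35).

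Lymphocyte genes that have no part in antibodies were high in lean replicate 3 as well. T cell markers, with 16 of 17 listed genes measured, had a list level of 0.76 in lean replicate 3, -0.10 to 0.0039 in the other lean arrays and -0.17 to -0.07 in cafeteria arrays. In 15 of the 16 the cafeteria mean was lower (median -0.15, which was -0.0249 without lean replicate 3 and -0.23 without lean replicate 1), and by limma 0 passed an adjusted p of 0.05 and 1 had an unadjusted p under 0.05. Over all genes 49.2% were lower and 6.70% had such an unadjusted p. Cd3e, a chain of the T cell receptor complex chosen after its values were seen, was 6.90 in lean replicate 3 and 4.44 to 5.01 elsewhere. Of the brightest, Lck, a T cell kinase, differed by -0.56 (SE 0.26; -0.21 without lean replicate 3), Cd6 by -0.22 (SE 0.14; -0.06 without it) and Cd8a by -0.0239 (SE 0.06).

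NK cell and macrophage markers moved less with that array. The NK cell list level was 0.10 in lean replicate 3 and -0.07 to 0.05 elsewhere, with 9 of 13 measured genes lower (median -0.0170) and 0 past an adjusted or an unadjusted p of 0.05 by limma. Among its brightest genes Klrk1 differed by -0.0874, Gzmk by 0.0269 and Klrb1c by -0.0493. Macrophage markers were lower in 11 of 14 genes (median -0.15), with 0 past an adjusted p of 0.05 by limma and 3 at an unadjusted p under 0.05, and a list level of 0.01 to 0.18 in lean and -0.24 to 0.12 in cafeteria arrays. Beside both lists, 49.2% of all genes were lower and 6.70% had an unadjusted limma p under 0.05. Lyz2, lysozyme, differed by -0.56 (SE 0.20), and the complement genes C1qa and C1qb by -0.21 (SE 0.14) and -0.30 (SE 0.13).

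A list of genes of lymph node stroma, follicles and the cells they attract had the highest level of the 11 lists in lean replicate 3. With 6 of 9 listed genes measured, its level was 1.77 there, -0.21 to 0.26 in the other lean arrays and -0.44 to -0.32 in cafeteria arrays, and its median difference between the diets was -0.84 with all arrays and -0.23 without lean replicate 3. All 6 had a lower cafeteria mean, by limma 0 passed an adjusted p of 0.05, and 3 had an unadjusted p under 0.05. Among all genes 49.2% had a lower mean and 6.70% such an unadjusted p. Ccl21, a chemokine that draws lymphocytes into lymph nodes, was 7.73 in lean replicate 3 and 3.86 to 4.96 elsewhere. Glycam1, a mucin-like ligand of high endothelial venules that other epithelia can also express, was 7.30 there and 4.84 to 5.52 elsewhere. Ccl19, a relative of Ccl21, was 6.67 there and 4.81 to 5.30 elsewhere. Cr2, the complement receptor of B cells and follicular dendritic cells, is on this and on the B cell list, and was 5.43 there and 4.21 to 4.59 elsewhere. Cxcl13, the chemokine that draws B cells into follicles, was highest in lean replicate 1 (6.68), with 5.93 in lean replicate 3 and 3.65 to 4.34 elsewhere. These genes were named after their values were seen, and the part of lymph node tissue in the immunoglobulin values was not tested.

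**Figure D4:**
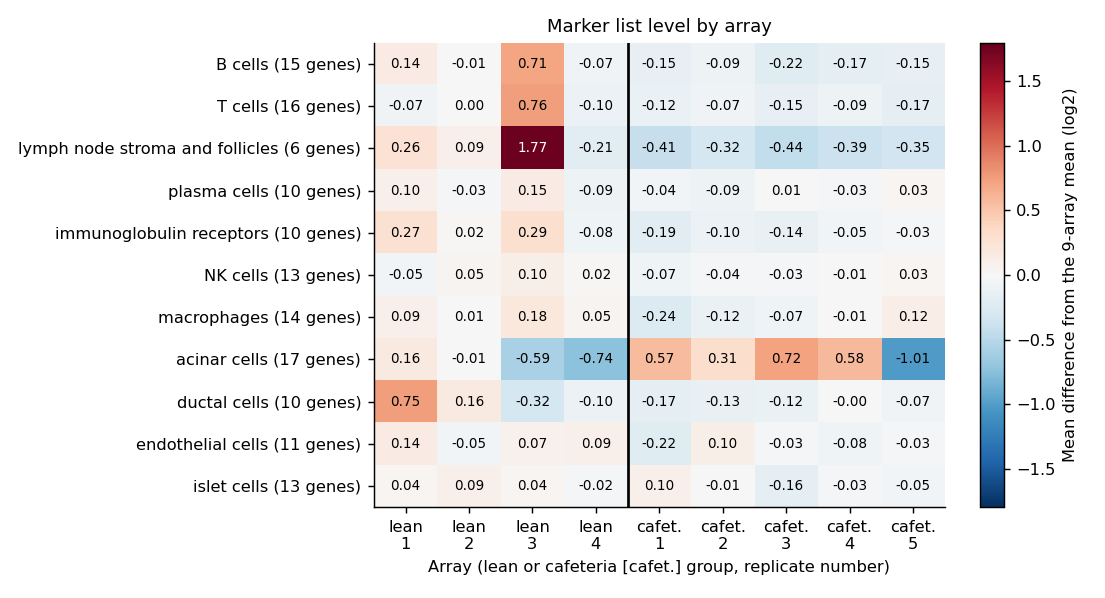
Level of 11 marker lists (rows) on each array (columns, lean left of the line, cafeteria right of it), as the mean over the measured genes of the log2 difference from the 9-array mean; red is above and blue below that mean. Lean replicate 3 holds the highest level of the B cell (0.71), T cell (0.76) and lymph node (1.77) lists, lean replicate 1 that of the ductal list (0.75), and the acinar list varies most among cafeteria arrays. At lower levels, lean replicate 3 is also highest in the plasma cell (0.15), NK cell (0.10) and macrophage (0.18) lists. The same holds for the immunoglobulin receptor list (0.29), where lean replicate 1 is close (0.27).

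Markers of other tissue around the islets had their highest levels in other arrays, and the ductal level was lowest in lean replicate 3. Acinar markers had list levels of 0.31 to 0.72 in cafeteria replicates 1 to 4 and of -1.01 in cafeteria replicate 5, while Ighvl1 was 4.25 to 4.73 in the former and 4.32 in the latter. In lean arrays the acinar level ran from -0.74 to 0.16 and was -0.59 in lean replicate 3. By limma 0 of 17 measured acinar genes passed an adjusted p of 0.05 and 4 had an unadjusted p under 0.05 (16 higher, median 0.56, and 1.02 without cafeteria replicate 5). Ductal markers had their highest level, 0.75, in lean replicate 1 and their lowest, -0.32, in lean replicate 3. By limma 0 of 10 genes passed an adjusted p of 0.05 and 1 had an unadjusted p under 0.05. Of the 10, 7 were lower (median -0.22, and -0.0156 without lean replicate 1). Without lean replicate 3, 9 were lower (median -0.30). Krt19, a ductal keratin chosen after its values were seen, was 3.90 in lean replicate 3 and 4.69 to 8.83 elsewhere. Its shortfall there against the mean of the other 8 arrays, -2.28, was the largest of all 31042 probe sets. Endothelial markers had levels of -0.05 to 0.14 in lean and -0.22 to 0.10 in cafeteria arrays (9 of 11 lower, median -0.13; 0 past an adjusted p of 0.05 by limma, 2 at an unadjusted p under 0.05). Islet markers had levels of -0.02 to 0.09 and -0.16 to 0.10 (9 of 13 lower, median -0.0400; 0 past either threshold). Beside each of these lists, 49.2% of all genes were lower and 6.70% had an unadjusted limma p under 0.05. The part of acinar, ductal or endothelial RNA in the immunoglobulin values was not tested.

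For each member the 3 genes with the most similar profile over the 9 arrays were identified by Pearson's r among 14216 other genes, with Spearman's rank coefficient beside it. These are the highest of many correlations over arrays that share the diets and lean replicate 3, so they carry no p-value. For Ighvl1 they were Coro1a (r = 0.991, Spearman 0.867), an actin-binding protein of leukocytes, Ltb (r = 0.986, Spearman 0.783), the lymphotoxin beta that lymphocytes use to organise lymphoid tissue, and Cd69 (r = 0.985, Spearman 0.817), an early activation antigen of lymphocytes. Without lean replicates 3 and 1, the arrays farthest from the median of Ighvl1, r was 0.932, 0.929 and 0.856 over 7 arrays. In Ighvl1 and in these 3 leukocyte genes every cafeteria array lay below every lean array, as in 0.837% of all genes. Nothing is read from this, since the 3 genes were picked by their likeness to Ighvl1. The 7 arrays still differ by diet, so a high r over them shows no likeness within a group. Coro1a was 8.09 in lean replicate 3, 5.31 to 5.72 in the other lean arrays and 4.61 to 4.97 in cafeteria arrays.

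For Ighl2 the most similar genes were Fcna (r = 0.970, Spearman 0.933), a ficolin of innate immunity, Fcrla (r = 0.965, Spearman 0.917), an Fc receptor-like protein inside B cells, and Arhgap4 (r = 0.953, Spearman 0.733), a GTPase-activating protein abundant in blood cells. Without lean replicates 3 and 4, r was 0.901, 0.901 and 0.907. Fcrla, which is on the B cell list, was 6.23 to 6.59 in lean and 6.04 to 6.23 in cafeteria arrays. Its difference of -0.26 (SE 0.09) was much smaller than that of Ighl2, although the order of the arrays was similar.

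Iglc1 was most like Tagap (r = 0.944, Spearman 0.783), a GTPase-activating protein of activated T cells, the kinase Syk (r = 0.930, Spearman 0.750), which signals below the B cell receptor, and Irf8 (r = 0.914, Spearman 0.550), a transcription factor of B and myeloid cells. Without lean replicate 3 and cafeteria replicate 2, r was 0.417, 0.509 and 0.212, so these likenesses rest on those arrays. For Jchain 1383163_at they were Cxcl13 (r = 0.941, Spearman 0.533), Il22ra2 (r = 0.930, Spearman 0.717), a soluble receptor that binds interleukin-22, and Otud1 (r = 0.924, Spearman 0.667), a deubiquitinase. Without lean replicates 1 and 3, r was 0.555, 0.515 and 0.730, so that of Cxcl13 and Il22ra2 rests largely on these arrays. No gene was among the 3 most similar to more than 1 member.

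**Figure D5:**
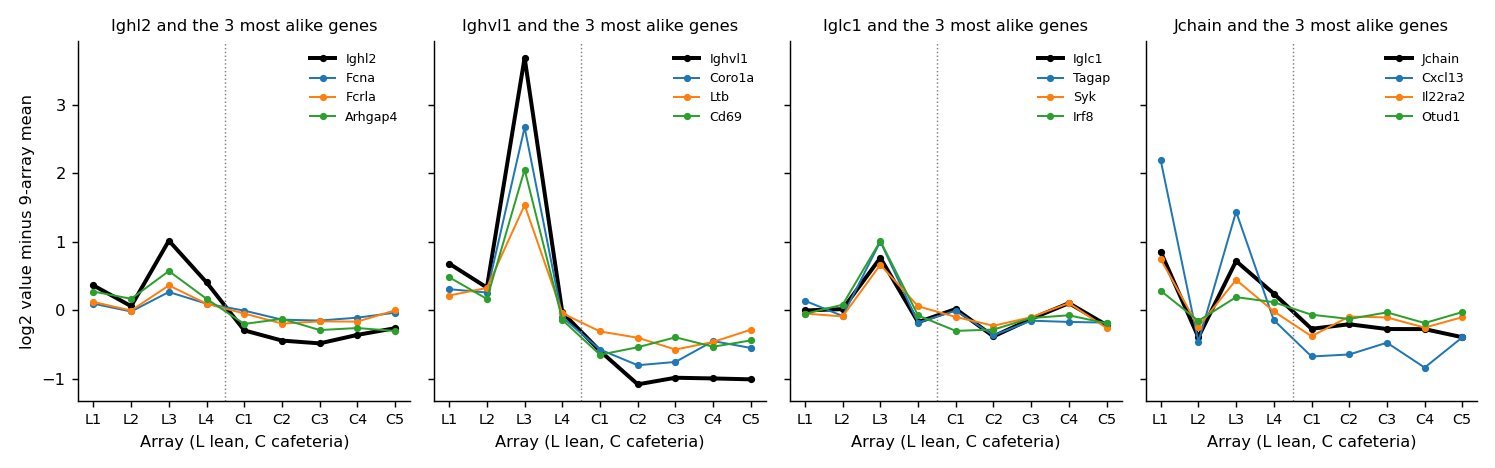
Profiles of Ighl2, Ighvl1, Iglc1 and Jchain 1383163_at (black) and of their 3 most similar genes (coloured) over the 9 arrays, as log2 value minus the 9-array mean (y axis); L1 to L4 are lean and C1 to C5 cafeteria arrays, and lines only join the values of 1 gene. The profiles of Ighl2, Ighvl1 and Iglc1 peak in lean replicate 3, and that of Jchain is highest in lean replicates 1 and 3.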

How the data were processed

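Log2 values of each probe set were taken as deposited. RMA, affy 2.0.1 and R 2.7.0 are named in the submitters' processing notes, with no role given. RMA makes the distributions of the arrays equal, so a shift shared by most genes would be removed. Of 31099 probe sets 57 controls were left out. A platform annotation gave 20826 probe sets a single gene, 436 several and left 9780 unlisted, and the last 2 kinds were not named. All 4 members were found in the RefSeq table (GRCr8) by gene identifier. The probe set with the highest mean stood for a gene.

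limma 3.58.1 (R 4.3.3; lmFit, plain eBayes, two-sided, Benjamini-Hochberg over all 31042 probe sets, threshold 0.05) gave differences, cafeteria minus lean, with moderated standard errors (SE). RNA quality was compared by an exact permutation test over 126 splits. Tables and plots were made with Python 3.11.15, pandas 2.3.3, numpy 2.4.6 and matplotlib 3.10.9. The test was checked on simulated data.

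The members and the 11 marker lists were chosen with earlier results of these data known. By a written rule the text names all member probe sets, other symbols starting with Igh, Igk, Igl or Igj, the 3 genes most similar to each member (skipping LOC and RGD symbols), and the 3 brightest genes of the lists for B, plasma, T and NK cells, macrophages and immunoglobulin receptors. Genes outside it are marked as chosen with their values known, except Ins2, Gcg and Cd37, which carry no such mark. Alternatives were median centring, repeated quantile normalization, brighter probe sets alone, array weights, robust variances with an intensity trend, RNA quality as a covariate, a threshold of 0.10, other probe set rules and leaving out each array. Leaving out lean replicates 1 and 3 together was added after the data were seen. The number of arrays limits the precision, and the median SE of a difference was 0.0981 log2.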

Additional observations from a re-analysis of the deposited data

Results flagged for a closer look

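Within the lean group of 4 and the cafeteria group of 5, the highest and the lowest array were compared with the rest. This covered 61 items in 122 groups, from the genes named here, the marker lists and RNA quality. Ins2, Gcg, Krt19 and Sdc1 were not among these items. In 16 cases an array lay farther from its nearest neighbour than Dixon's 95% critical value allows, where chance flags about 1 in 20 groups, and 8 of these cases were lean replicate 3 on the high side. The items are related genes chosen with results known, so the cases are not independent.

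Among the members, Ighvl1 was high in cafeteria replicate 1 (4.73) relative to the other cafeteria arrays. The value of Ighvl1 in lean replicate 3, at 9.02, was below the critical value, since the other lean arrays also varied. Lean replicate 3 stood above the other lean arrays in the leukocyte gene Coro1a (8.09), in Irf8 (6.15), in the T cell kinase gene Lck (7.37), in the B cell genes Ms4a1 (6.31), Cd79b (6.40) and Cd37 (6.51), in the chemokine gene Ccl19 (6.67) and in the T cell list level (0.76). Lean replicate 1 stood above the other lean arrays in Lgals3 (8.0) and in Tnfrsf17 (4.23), where the lean values spanned only 4.03 to 4.23.

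The remaining cases were cafeteria replicate 2 high in Blnk (6.46), lean replicate 2 low in Cd8a (4.85), cafeteria replicate 3 low in C1qb (5.53), cafeteria replicate 4 high in Cr2 (4.36) and cafeteria replicate 5 low in the acinar list level (-1.01).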

How the results depend on the processing

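All 5 member probe sets kept a negative difference under each alternative that kept them (the brighter probe sets alone kept 1 of the 5, Ighvl1), and 0 probe sets passed an adjusted p of 0.05 by limma in any of them. With single arrays left out, the difference was -2.50 to -1.26 for Ighvl1, -0.96 to -0.65 for Ighl2, -0.38 to -0.07 for Iglc1, -0.89 to -0.47 for Jchain 1383163_at and -0.17 to -0.02 for Jchain 1384208_at. Jchain 1383163_at was -0.21 with lean replicates 1 and 3 left out together. Of the list medians, that of T cells was -0.56 and that of macrophages -0.30 among the brighter probe sets alone, where fewer genes were left. The lymph node median was -1.04 to -0.23 and the NK cell median -0.0724 to 0.0042 with single arrays left out, and the NK cell median was -0.0699 without lean replicates 1 and 3. With single arrays left out the acinar median was 0.38 to 1.02, the ductal -0.30 to -0.0156, that of immunoglobulin receptors -0.25 to -0.03 and the islet -0.0671 to -0.0100. The plasma cell median was 0.0015 to 0.0530 in the same way, and it was -0.0022 with each probe set on its own. The RNA quality difference was -0.11 to 0.0281 with single arrays left out. The causes were not tested. No paired analysis was possible because the labels give no replicate numbers that the groups share. Ighl2 and Ighvl1 alone of the members were separate between the groups. Dim values limit what the members can show, and Ighl2 was dim too, below the array median on 8 of 9 arrays.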

Other observations

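Lean replicate 1 was the highest array in several genes that epithelia express. Cd24 was 8.64 there and 6.74 to 8.01 elsewhere, Pigr 7.61 against 6.60 to 7.11, and Lgals3 8.0 against 5.95 to 7.19, and the ductal list level was 0.75 against -0.32 to 0.16. The B cell list level of that array was 0.14 and its Pou2af1 and Fcmr values were 4.72 and 5.30, each second to lean replicate 3. It was also the highest array of Jchain 1383163_at (5.14) and Cxcl13 (6.68). These genes were set together after their values were seen.

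Of the 25 probe sets with the largest excess of lean replicate 3 over the other 8 arrays, 6 carried no single gene name in the annotation. Among all 31042 probe sets compared, 20826 had a single gene name, and nothing is read from this count.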
